A study of Rattus norvegicus with 36 samples.

Results

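MicroRNA levels in the nucleus accumbens (NAc) were compared with those in the prefrontal cortex (PFC) of the same animals, in rats killed during acute withdrawal from cocaine. The members were chosen by label: all libraries of the acute-withdrawal rats, which were 12 of the 36 libraries of the series and came from 4 of its 12 rats (M153, M366, M172 and M154). Each of the 4 rats gave 1 NAc library, 1 library of the prelimbic cortex (PL) and 1 of the infralimbic cortex (IL), and the cortical value of a rat was the mean of its PL and IL values on the log2 scale. All rats were male heterogeneous stock rats, an outbred laboratory population. The acute-withdrawal rats had self-administered cocaine intravenously through a jugular catheter, first in short and then in long daily sessions in which intake escalates, and were sampled 16 h after it according to the labels. The study's methods state a longer interval. The abstinence rats (n = 4) had the same history followed by 4 weeks without the drug, and the naïve rats (n = 4) received none. The NAc was dissected whole, without separating shell from core, so that each value is an average over the cell types of both. Behavioural tests were given to the rats of the cocaine groups alone, so that cocaine and testing cannot be told apart between groups, although the comparison of regions within a rat holds both constant.

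The NAc is the ventral part of the striatum, where most neurons are GABAergic medium spiny neurons. The PL and IL are areas of the medial PFC, whose principal neurons are glutamatergic pyramidal cells that project to the NAc, among other targets. A microRNA (miRNA) is cut from a hairpin precursor, of which either arm (5p or 3p) can be kept, and it represses messenger RNAs that pair with its seed, the bases 2 to 8 of the mature strand. Many miRNAs lie in introns of protein-coding genes or in clusters of hairpins made from 1 transcript. In bulk tissue fewer cells of a type and less RNA per cell cannot be told apart.

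The mature sequences of the miRNAs on which the comparison turned are given here in full, from RefSeq (assembly GRCr8), with the seed in capitals. The first set holds miRNAs far higher in the NAc, among them the miR-7 pair with its shared seed, miRNAs in introns of receptor genes and X-linked miRNAs.
miR-187-3p: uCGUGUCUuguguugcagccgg
miR-7a-5p: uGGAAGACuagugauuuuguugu
miR-7b: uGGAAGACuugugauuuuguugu
miR-1298: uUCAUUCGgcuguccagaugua
miR-448-3p: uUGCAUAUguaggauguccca
miR-653-3p: uUCACUGGgguuuguuucacua
miR-653-5p: uUGAAACAuucucuacugaac
miR-741-3p: aAAGAUGCcacgcuauguagau
miR-743a-3p: gAAAGACGccaaacuggguaga

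Of the miRNAs lower in the NAc, the following are shown. They are miR-214-3p, which had the largest fall, the products of the hairpins of the most abundant miRNA, miR-128-3p, and miR-490-3p, in an intron of Chrm2.
miR-128-2-5p: gGGGGCCGaugcacuguaaga
miR-128-1-5p: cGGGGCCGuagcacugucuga
miR-128-3p: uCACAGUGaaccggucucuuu
miR-490-3p: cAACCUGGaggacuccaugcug
miR-214-3p: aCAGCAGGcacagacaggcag

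The let-7 miRNAs are shown because they share a seed and differed in direction.
let-7c-5p: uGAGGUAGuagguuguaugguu
let-7b-5p: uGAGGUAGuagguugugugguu
let-7a-5p: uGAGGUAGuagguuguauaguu
let-7f-5p: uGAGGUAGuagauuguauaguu
let-7i-5p: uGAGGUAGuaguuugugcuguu
miR-98-5p: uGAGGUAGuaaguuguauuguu

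Counted from 1 at the 5′ end and with the base of let-7c-5p first, let-7b-5p differs by A17G, let-7a-5p by G19A, let-7f-5p by G12A and G19A, and miR-98-5p by G11A and G19U. miR-7b differs from miR-7a-5p by A10U. Near-identical strands of this kind can be split wrongly by read counting, and their single values are less certain for that reason.

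The values were raw read counts for 723 mature miRNAs, and 457 passed a filter on low counts. Total counts ran from 10251905 to 14840649 in the NAc, 11372613 to 18877136 in the PL and 8888971 to 10350700 in the IL, so that all IL libraries but 1 were shallower than every NAc library. RNA integrity numbers (RIN) ran from 8.2 to 9.3. Levels are given as log2 CPM (the base-2 logarithm of the reads of a miRNA relative to the scaled library total) with a prior count of 0.5, and log2 fold changes (log2FC, NAc minus PFC) with their standard errors (SE) come from edgeR's quasi-likelihood test with the rat as a block. Adjusted p-values (Benjamini-Hochberg) cover all 457 miRNAs, and a miRNA is called where the adjusted p is under 0.05. Correlations of log2 CPM over the miRNAs were 0.967 to 0.988 between NAc libraries and 0.908 to 0.973 between NAc and PFC libraries. Between PFC libraries they were 0.940 to 0.987, and these ranges overlapped. The PL and NAc libraries of rat M172 stood apart by the sum of miR-200 and miR-183 family members, which mark epithelial and sensory cells including those of the olfactory system. That sum was 1895 CPM in the PL and 1406 CPM in the NAc of M172, against 31 to 167 CPM in the other 10 libraries, and calls described here that were lost without this rat are given as such.

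NAc and PFC differed across much of the miRNA population. Of the 457 miRNAs, 247 (54.0%) were called, with 132 (28.9%) higher and 115 (25.2%) lower in the NAc. A change of at least 2-fold was found for 90 called miRNAs on the higher side (19.7%) and 50 on the lower side (10.9%). All 4 NAc libraries lay above all 8 PFC libraries for 60 miRNAs (13.1%) and below all 8 for 49 (10.7%), and all of these were called. The sign was the same in all 4 rats for 242 of the 247 calls. The calls were made on these same values, so this is not separate support for them. The exact permutation test that moves the NAc label among the 3 libraries of each rat (two-sided, 81 arrangements) cannot go below p = 0.0123, and 103 miRNAs reached that value, 101 of them called. Without scaling beyond the library totals the median of all miRNAs moved by 0.39 on the log2 scale and the calls became 189 higher and 54 lower, whereas DESeq2 size factors gave 135 higher and 113 lower, so the near balance of directions was present with both scalings that centre the values and not with the totals. Without rat M172 there were 87 higher and 118 lower calls.

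**Figure D1:**
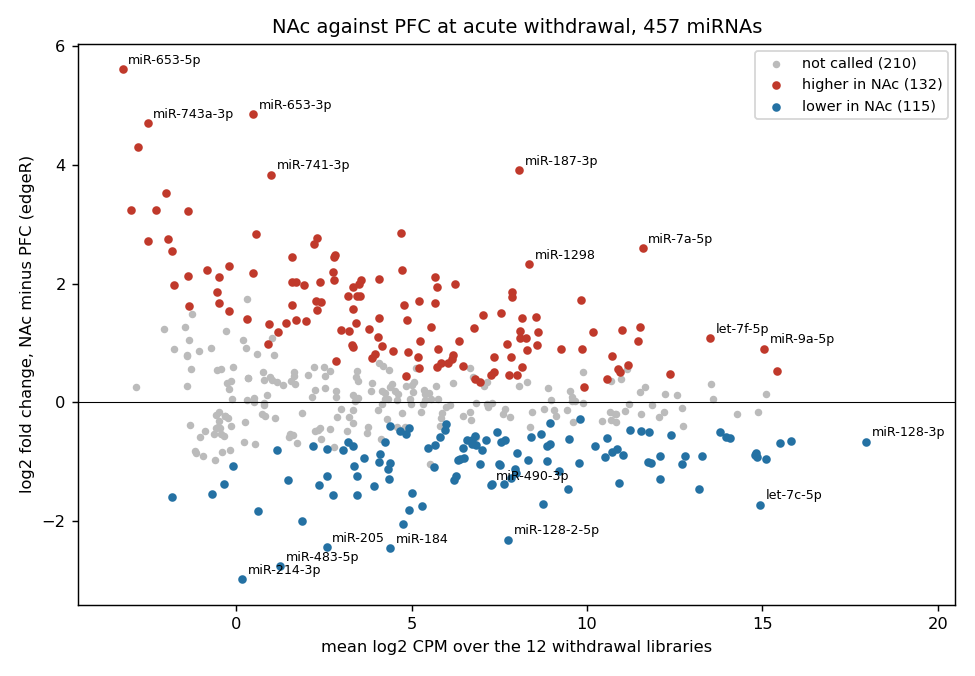
Log2 fold change of the NAc against the PFC at acute withdrawal (vertical axis) against the mean log2 CPM over the 12 withdrawal libraries (horizontal axis) for 457 miRNAs, 1 point each. Red points are the 132 called higher in the NAc, blue points the 115 called lower and grey points the rest, with miR-187-3p at 3.91 among the higher points and miR-128-2-5p at −2.32 among the lower ones.

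The differences also followed the base composition of the miRNAs, and this holds for the whole set. Over the 411 tested miRNAs with a RefSeq sequence, log2FC fell with the share of G and C bases (GC content), with Spearman's rho of −0.52 and Pearson's r of −0.48 across miRNAs, which are not independent replicates. In the single rats rho was −0.54 (M153), −0.38 (M366), −0.58 (M172) and −0.49 (M154). Of the 62 miRNAs with a GC content under 40%, 45 were called higher and 3 were called lower, at a median log2FC of 1.40. Of the 71 at 60% or more, 4 were called higher and 34 were called lower, at a median of −0.54. The libraries themselves differed in this respect: log2 CPM rose with GC by 0.582 to 0.902 per 10 percentage points in the IL and by 0.098 to 0.316 in the PL, and went from −0.272 to 0.059 in the NAc. The same gradient stood between the cortical areas, where rho for IL minus PL was 0.65. Whether this gradient arises in the tissue or in library preparation was not tested. A fit whose offsets take out the GC trend of each library was therefore added after the data had been seen, and its values stand beside the uncorrected ones where they bear on a miRNA or list described here. That fit called 51.3% of the 411 miRNAs, 134 as higher and 77 as lower, against 125 and 102 of the same 411 as counted. Calls in the same direction in both fits numbered 148 (90 higher, 58 lower), 3 were in opposite directions, 76 were lost and 60 were gained.

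**Figure D2:**
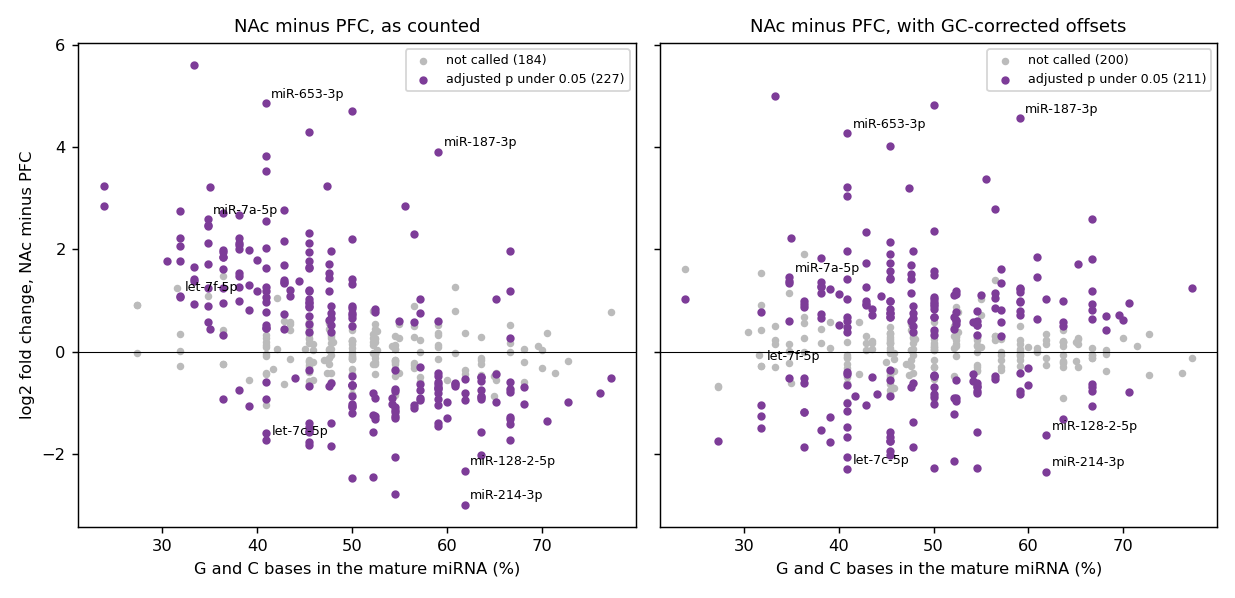
Log2 fold change of the NAc against the PFC (vertical axes) against the share of G and C bases in the mature miRNA in percent (horizontal axes) for 411 miRNAs, as counted on the left and with GC-corrected offsets on the right. Purple points have an adjusted p under 0.05. On the left the points fall from left to right (rho −0.52), and miR-187-3p stays far above 0 on both sides (3.91 and 4.57) while let-7f-5p moves from 1.08 to −0.27.

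miR-187-3p had the lowest p-value of all. Its levels in the NAc were 10.86, 10.91, 10.74 and 10.47 log2 CPM in rats M153, M366, M172 and M154. In the PL they were 6.32, 6.28, 6.40 and 6.41, and in the IL 8.43, 7.02, 6.40 and 6.58. Every NAc library was thus more than 2 log2 units above every cortical library, and the IL of M153 was the highest cortical value. The log2FC was 3.91 (SE 0.25, adjusted p = 5.76e-11, n = 4 rats), with a range of 3.62 to 4.03 when 1 rat was left out. It was 4.57 with GC correction. The other arm of the hairpin, miR-187-5p, was also higher by 2.85 (SE 0.29, adjusted p = 9.32e-08), at 6.64 ± 0.32 log2 CPM in the NAc, 2.96 ± 0.32 in the PL and 4.53 ± 0.96 in the IL (mean ± SD, n = 4).

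The miR-7 miRNAs, known from neurons and endocrine cells and bound in the brain by the circular RNA Cdr1as, were higher in the NAc as a pair. miR-7a-5p stood at 13.14, 12.70, 13.89 and 13.56 log2 CPM in the NAc, at 11.11, 11.31, 11.48 and 11.48 in the PL and at 9.90, 10.08, 9.55 and 10.80 in the IL. The regions did not overlap, and the order was NAc, PL, IL in each rat. The log2FC was 2.59 (SE 0.33, adjusted p = 2.16e-06) and 1.46 with GC correction. miR-7b, which shares its seed, had a log2FC of 1.72 (SE 0.24, adjusted p = 5.13e-06), with NAc levels of 10.80 to 11.34 and PFC levels of 8.45 to 9.89. Its value was 0.61 with GC correction. The list of 4 miR-7 arms held 2 calls, both higher, and a median log2FC of 1.46 (0.64 with GC correction).

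All 6 tested members of the list of miRNAs in introns of Htr2c, the gene of the serotonin 2C receptor, were higher in the NAc (6 of 6 called, median log2FC 2.31, against 28.9% called higher and a median of 0.05 over all miRNAs). miR-1298 was the most abundant of them, with 10.39, 9.57, 10.26 and 9.71 log2 CPM in the NAc, 7.57, 6.79, 7.83 and 6.91 in the PL, and 9.32, 7.56, 6.67 and 7.73 in the IL. Its log2FC was 2.32 (SE 0.27, adjusted p = 7.74e-07). The NAc libraries were above all cortical ones, and the IL of M153 again came nearest. miR-448-3p had 4.32, 3.86, 4.24 and 4.42 log2 CPM in the NAc, against 0.97 to 1.49 in the PL and 0.61 to 2.71 in the IL, and a log2FC of 2.77 (SE 0.28, adjusted p = 9.32e-08). For miR-448-5p the log2FC was 2.19 (SE 0.25), for miR-764-5p 2.06 (SE 0.35), for miR-764-3p 2.30 (SE 0.55) and for miR-1912-3p 3.24 (SE 0.86). miR-1912-3p was close to the detection limit, and its call was lost without M153 (2.43, adjusted p = 0.071). With GC correction all 5 members that have a sequence were called higher, with a median of 2.36. The level of Htr2c itself was not measured by these libraries.

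Both arms of miR-653, a hairpin in an intron of Calcr, the calcitonin receptor gene, were close to the detection limit in the PFC and detected in every NAc library. Read counts of miR-653-3p were 258, 147, 94 and 254 in the NAc and 1 to 26 in the 8 cortical libraries. On the log2 CPM scale the NAc held 4.10, 3.0, 2.97 and 4.21, the PL −1.46, −2.72, −1.74 and −1.18 and the IL 1.62, −2.61, −0.89 and 0.54, and no values overlapped. The log2FC was 4.85 (SE 0.45, adjusted p = 5.15e-08) and 4.27 with GC correction. miR-653-5p had 6, 3, 14 and 13 reads in the NAc and 0 in all 8 cortical libraries. Set against a floor of 3 reads over those 8 libraries together, its level was at least 22.7-fold higher in the NAc, which covers counting error alone. Its call (adjusted p = 0.00798) was lost without M172 (adjusted p = 0.11), with DESeq2 and against the IL alone.

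A group of X-linked miRNAs, known in rodents from the testis, showed the same picture of detection in the NAc and near absence in the cortex. miR-741-3p stood at 4.26, 4.68, 4.16 and 3.78 log2 CPM in the NAc, and it had 5, 9, 11 and 5 reads in the PL and 46, 23, 3 and 0 reads in the IL. Its log2FC was 3.83 (SE 0.62, adjusted p = 2.98e-05). The IL libraries of M153 and M366 were higher than the rest of the cortex but still below every NAc library. miR-743a-3p had 6, 60, 9 and 12 reads in the NAc and 3 in the whole cortex, 1 in each of 3 IL libraries (log2FC 4.70, SE 0.89). miR-743b-5p had 8, 21, 12 and 9 reads in the NAc and 3 in the cortex, all in the IL of M153 (log2FC 4.30), and this call was lost without M172 and against the IL alone. miR-871-3p, which lies near miR-741 on the X chromosome, was higher by 2.12 (SE 0.71, adjusted p = 0.0145), but its values overlapped between regions.

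**Figure D3:**
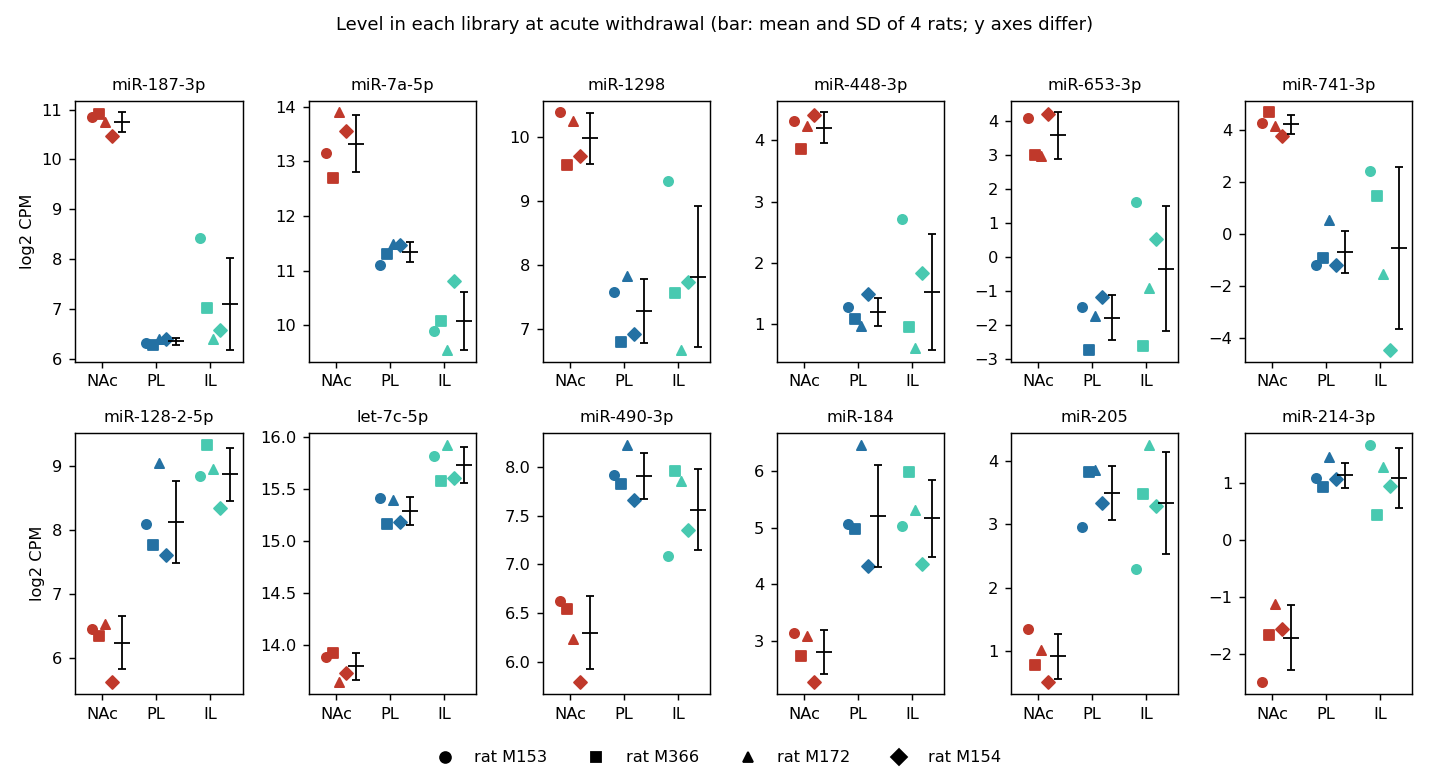
Level of 12 miRNAs in log2 CPM (vertical axes, which differ between panels) in the NAc, PL and IL of the 4 withdrawal rats, 1 symbol shape for each rat, with the mean and SD of 4 rats as a black bar. In all 12 panels the 4 NAc points lie wholly above or wholly below the cortical points, and the IL of M153 is the cortical point nearest the NAc for miR-187-3p (8.43) and miR-1298 (9.32).

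Other miRNAs were higher in the NAc at moderate to high levels. miR-101b-3p, of a family known to repress the histone methyltransferase gene Ezh2, stood at 6.30 to 7.65 log2 CPM in the NAc, 5.46 to 5.59 in the PL and 4.20 to 4.51 in the IL (log2FC 2.12, SE 0.34). miR-21-5p, a broadly expressed miRNA known for its rise in glia after injury, stood at 7.5, 6.95, 8.01 and 7.79 in the NAc, at 5.78 to 6.68 in the PL and at 4.52 to 5.47 in the IL (log2FC 1.98, SE 0.36). Both were above all cortical libraries in every NAc library, and with GC correction they had 1.28 and 0.99 and were still called. miR-708-3p was higher by 1.94 (SE 0.38), miR-495 by 1.85 (SE 0.26), miR-192-5p by 1.71 (SE 0.32), miR-16-5p by 1.66 (SE 0.28) and miR-598-3p by 1.51 (SE 0.20). With GC correction miR-495 fell to 0.87, while miR-708-3p (1.74), miR-192-5p (1.69) and miR-16-5p (1.45) moved less. miR-9a-3p, from a hairpin known for its part in neural progenitors, was higher by 1.78 (SE 0.35) as counted. With GC correction it was 0.42 and no longer called.

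Of the miRNAs lower in the NAc, the largest fall at moderate to high levels belonged to miR-128-2-5p, from a hairpin in an intron of Arpp21, which encodes a cAMP-regulated phosphoprotein of neurons. It stood at 6.45, 6.34, 6.53 and 5.62 log2 CPM in the NAc, at 8.10, 7.76, 9.05 and 7.62 in the PL and at 8.86, 9.34, 8.95 and 8.34 in the IL. All NAc libraries were below all cortical libraries. The log2FC was −2.32 (SE 0.24, adjusted p = 9.32e-08) and −1.63 with GC correction. miR-128-1-5p, which comes from the other miR-128 hairpin, in R3hdm1, and has the same seed, had −1.41 (SE 0.26), or −0.76 with GC correction. The shared product of both hairpins, miR-128-3p, was the most abundant miRNA of all 12 libraries by count, with 19.6 to 26.9% of the counts in the NAc and 17.2 to 38.2% in the PFC. Its levels were 17.79, 17.35, 18 and 17.15 in the NAc, 18.66, 18.24, 19.08 and 18.07 in the PL and 17.44, 18.22, 17.61 and 18 in the IL. The NAc was below the PL of the same rat in all 4 rats, but values of NAc and IL overlapped, and M153 and M172 had more in the NAc than in the IL. The log2FC was −0.67 (SE 0.26, adjusted p = 0.0355), and this call was lost in 6 other settings.

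let-7c-5p showed the clearest separation among the abundant miRNAs. Its levels were 13.88, 13.92, 13.64 and 13.72 log2 CPM in the NAc, 15.41, 15.16, 15.39 and 15.18 in the PL and 15.81, 15.57, 15.92 and 15.60 in the IL. The NAc libraries spanned less than 0.3 log2 units and lay more than 1 unit below every cortical library. The log2FC was −1.73 (SE 0.18, adjusted p = 9.37e-08) and −2.29 with GC correction. As a share of all counts let-7c-5p made up 1.31 to 1.93% in the NAc and 2.96 to 6.10% in the PFC.

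Several further miRNAs that were lower in the NAc lie in introns of genes with known functions. miR-490-3p, in the gene of the muscarinic acetylcholine receptor M2 (Chrm2), stood at 6.62, 6.54, 6.24 and 5.79 log2 CPM in the NAc, 7.91, 7.82, 8.23 and 7.66 in the PL and 7.08, 7.96, 7.85 and 7.36 in the IL. It was lower by −1.40 in log2FC (SE 0.17, adjusted p = 1.21e-06), or −0.75 with GC correction, and its other arm, miR-490-5p, had −1.30 (SE 0.21), or −0.65 with it. miR-671, in the chondroitin synthesis gene Chpf2, had a log2FC of −1.72 (SE 0.21), with 7.19 to 7.85 in the NAc and 8.45 to 10.15 in the cortex, and −1.05 with GC correction. miR-672-5p, in the X-linked gene Nexmif, had −1.38. miR-483-5p and miR-483-3p, in the imprinted growth factor gene Igf2, had −2.77 (SE 0.54) and −2.01 (SE 0.48) at low levels, or −2.26 and −1.32 with GC correction, and their values overlapped between regions.

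Among miRNAs at low levels, the fall of miR-214-3p was the largest. It had 2, 5, 5 and 4 reads in the NAc and 11 to 35 reads in each cortical library, a log2FC of −2.99 (SE 0.41, adjusted p = 3.81e-06). miR-184 stood at 3.13, 2.73, 3.08 and 2.28 log2 CPM in the NAc, 5.07, 4.97, 6.47 and 4.32 in the PL and 5.02, 5.98, 5.31 and 4.35 in the IL (log2FC −2.46, SE 0.31). miR-205, known from epithelia, stood at 1.36, 0.78, 1.02 and 0.51 in the NAc and between 2.30 and 4.26 in the cortex (log2FC −2.45, SE 0.36). For these 3 miRNAs the NAc libraries lay below all cortical libraries, and the values with GC correction were −2.34, −2.28 and −2.12. miR-375-3p, known from endocrine cells, had a log2FC of −2.05 (SE 0.54), but its IL library of M153 was at 8.90 against 4.05 to 5.57 in the other cortical libraries. Without M153 it had −1.79 and was still called, while against the PL alone it was not called. Other named falls at higher levels were miR-206-3p (−1.75, SE 0.30), miR-135a-3p (−1.54), let-7b-5p (−1.47, SE 0.22), miR-125b-1-3p (−1.46, SE 0.20, and −0.81 with GC correction) and miR-664-2-5p (−1.31).

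The 5 most abundant called miRNAs in each direction included miR-7a-5p and let-7c-5p, described above, and others with smaller differences that depended on the setting. miR-26a-5p was higher in the NAc by 0.52 (SE 0.19, adjusted p = 0.0248), miR-9a-5p by 0.90 (SE 0.34, adjusted p = 0.0281), let-7f-5p by 1.08 (SE 0.28, adjusted p = 0.00206) and miR-29a-3p by 0.47 (SE 0.14, adjusted p = 0.00578). None of these 4 was called against the PL alone, and all 4 were below 0 and not called with GC correction. Without M172 none of the 4 was called either, and miR-26a-5p, miR-9a-5p and miR-29a-3p were also not called without M153. The call of miR-26a-5p was lost without M366 too. miR-9a-5p shows the pattern, with 15.20 to 16.17 log2 CPM in the NAc, 15.25 to 15.65 in the PL and 13.63 to 14.54 in the IL. Its NAc and PL values overlapped and the IL stood lower. On the other side miR-125a-5p had −0.65, miR-127-3p −0.68 and miR-328a-3p −0.95. All 3 calls were lost with library totals and no scaling. miR-125a-5p was also not called against the PL alone, and miR-127-3p was −0.04 and not called with GC correction.

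Members of 1 seed family went in both directions in the let-7 group, whose miRNAs rise as cells differentiate and are blocked from processing by Lin28. Of the 8 tested miRNAs with the seed GAGGUAG, 2 were called higher and 5 lower in the NAc. The lower ones were let-7c-5p, let-7b-5p, let-7a-5p (−0.92, SE 0.12), let-7e-5p (−0.91, SE 0.17) and let-7d-5p (−0.58, SE 0.13). The higher ones were let-7f-5p, at 14.01 to 14.56 log2 CPM in the NAc against 13.64 to 14.05 in the PL and 11.97 to 13.06 in the IL, and miR-98-5p (1.08, SE 0.24, adjusted p = 0.000775). These 2 lie together in an intron of Huwe1, a ubiquitin ligase gene, although a second let-7f hairpin lies elsewhere. let-7i-5p was not called (0.14, SE 0.19). With GC correction 6 of the 8 were lower and none higher, with let-7f-5p and miR-98-5p at −0.27 each. The fall of let-7c-5p was present in both fits, and the rise of the 2 others was not. Of the 43 seeds shared by 2 or more tested miRNAs, 16 had at least 2 called members. All called members were higher for 9 of these 16 seeds, all were lower for 4, and 3 went both ways.

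**Figure D4:**
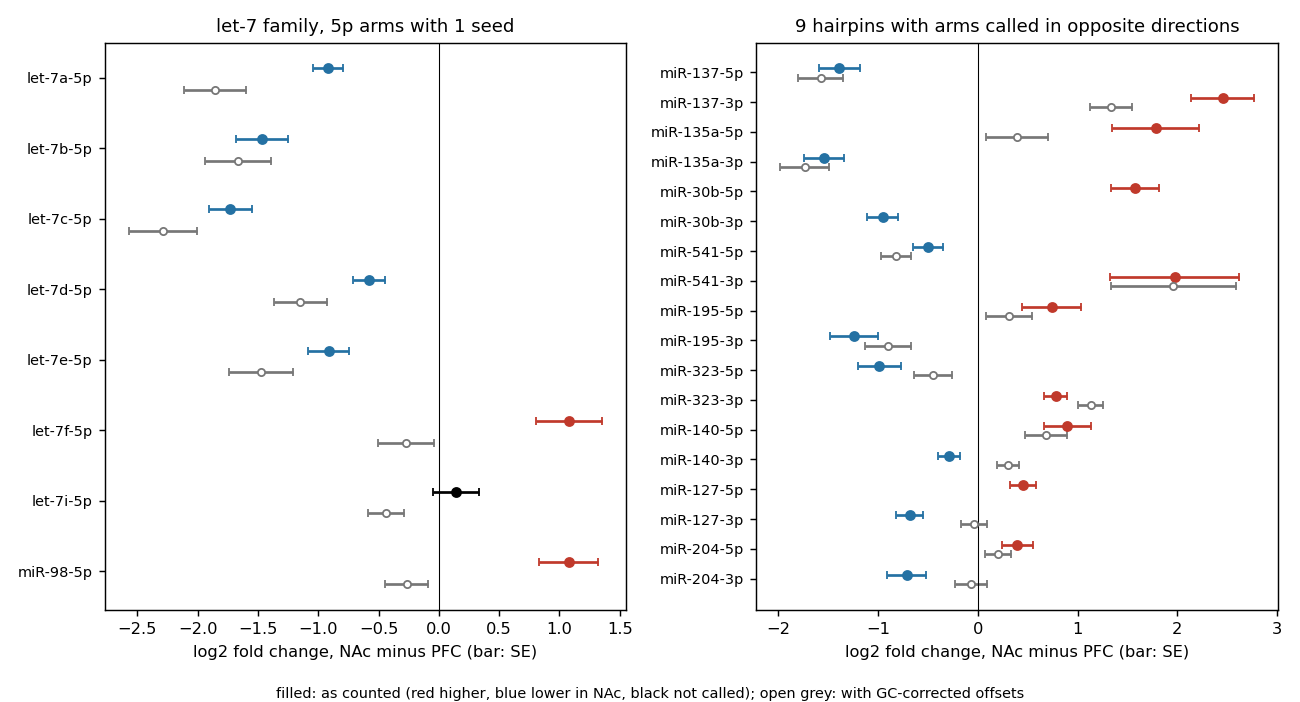
Log2 fold change of the NAc against the PFC with its SE (horizontal axes) for 8 let-7 miRNAs with 1 seed (left) and for both arms of 9 hairpins called in opposite directions (right). Filled symbols are values as counted (red higher, blue lower in the NAc, black not called) and open grey symbols values with GC-corrected offsets. let-7f-5p and miR-98-5p stand at 1.08 as counted and at −0.27 after correction, while the arms of miR-137 stay apart.

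Lists of miRNA families and genomic clusters were described by their counts, to be read against 28.9% higher, 25.2% lower and a median log2FC of 0.05 over all miRNAs. Values with GC correction are to be read against 134 higher and 77 lower of 411 and a median of 0.19 in that fit. The 17 tested let-7 arms had 3 higher and 8 lower (median −0.36), and 1 higher and 10 lower of 16 with GC correction (median −0.86). The 11 tested miRNAs of the miR-99, miR-100 and miR-125 group, which are often made from the same transcripts as let-7, had 0 higher and 7 lower (median −0.65), and 0 higher and 5 lower with GC correction. On chromosome 1 the cluster of let-7e, miR-99b and miR-125a had all 6 arms lower (median −0.69) as counted. With GC correction let-7e-3p (0.11), miR-99b-5p (0.19) and miR-99b-3p (−0.05) were not called, and the other 3 were still lower. The 6 tested arms of the related group of miR-376, miR-381 and miR-300 had 5 higher and 0 lower (median 1.32), and 4 higher and 0 lower with GC correction (median 1.09). The 2 of miR-101 were both higher (median 1.75), but miR-101a-3p went from 1.38 to 0.16 and was not called with GC correction. The 4 of miR-221 and miR-222 had 0 higher and 2 lower (median −0.67, or −0.32 with GC correction and the same counts). The 11 miR-30 arms had 4 higher and 3 lower, and 2 higher and 1 lower of the 6 with a sequence after correction. The imprinted Dlk1-Dio3 domain, whose miRNAs come from the maternal chromosome and are abundant in brain, had 35 higher and 14 lower of 83 tested (median 0.37), and 39 higher and 5 lower of 80 with GC correction. Within it values ran from miR-770-3p (−1.36) and miR-485-5p (−1.30) to miR-382-3p (2.67) and miR-369-3p (2.84), which had −0.78, −0.81, 1.84 and 1.03 with GC correction. miR-382-3p stood at 3.52, 3.53, 4.31 and 5.11 log2 CPM in the NAc, 1.30 to 3.09 in the PL and −0.43 to 1.2 in the IL.

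Where both arms of 1 hairpin were called, they moved together more often than apart. Over all miRNAs 28.9% were called higher and 25.2% lower. Of the 141 hairpins with both arms tested, 43 had both arms called. Among them 17 had both higher, 17 had both lower and 9 had the arms in opposite directions. miR-137, known from neuronal maturation, was the widest of these, with miR-137-5p at −1.38 (SE 0.21) and miR-137-3p at 2.45 (SE 0.31). miR-137-3p stood at 3.67 to 5.0 log2 CPM in the NAc, 2.25 to 3.26 in the PL and 0.41 to 1.84 in the IL. miR-137-5p stood at 5.77 to 6.91 in the NAc, 6.64 to 8.12 in the PL and 7.93 to 8.37 in the IL.
miR-137-5p: aCGGGUAUucuuggguggauaa
miR-137-3p: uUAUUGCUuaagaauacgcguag
The other 8 were miR-135a (5p 1.78, 3p −1.54), miR-30b (5p 1.57, 3p −0.95), miR-541 (5p −0.50, 3p 1.97), miR-195 (5p 0.74, 3p −1.24), miR-323 (5p −0.98, 3p 0.78), miR-140 (5p 0.90, 3p −0.29), miR-127 (5p 0.45, 3p −0.68) and miR-204 (5p 0.40, 3p −0.71). Several of these calls were lost when a rat was left out or against the PL alone, and not with M172 only. The call of miR-204-5p was lost whichever of the 4 rats was left out. That of miR-195-5p was also lost without M153 or M154, and that of miR-127-5p without M153. The call of miR-140-3p was lost without M153. Without M172 the calls of miR-127-5p (0.23), miR-140-5p (0.47), miR-195-5p (0.40), miR-204-5p (0.16) and miR-541-3p (1.40) were lost, so that 5 of the 9 hairpins no longer had both arms called. Against the PL alone miR-135a-5p, miR-323-5p, miR-204-3p, miR-140-5p, miR-140-3p, miR-127-5p, miR-195-5p and both arms of miR-541 were not called. The direction of miR-140-3p turned to 0.10 with library totals alone and to 0.31 with GC correction. In 6 of the 7 hairpins with both sequences the arm higher in the NAc had the lower GC content. Over 119 hairpins the difference between arms in log2FC correlated with their difference in GC (r = −0.59, rho = −0.57, across hairpins). With GC correction 2 hairpins kept arms called in opposite directions, miR-137 and miR-541. Of these, miR-541-3p had 74 reads over the 12 libraries and its call was also lost without M153, whereas both arms of miR-137 were called in every setting run on them.

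Markers of cell types were read for the composition of the dissected tissue. Their counts stand against 28.9% called higher and 25.2% called lower over all miRNAs, and 134 higher and 77 lower of 411 with GC correction. Counts near these shares say nothing particular about a cell type. The neuron-enriched list had 10 higher and 9 lower of 26 tested (5 and 5 of 23 with GC correction), and its summed level was 331767 to 413550 CPM in the NAc, 393174 to 499693 in the PL and 306912 to 402307 in the IL. miR-124-3p, the defining neuronal miRNA, had −0.56 (SE 0.17). The oligodendrocyte list summed to 4061 to 5520 CPM in the NAc, 1737 to 5305 in the PL and 2095 to 3321 in the IL. Of its 4 tested arms 1 was called, miR-338-3p (1.99, SE 0.33, 25.3 to 40.5 CPM in the NAc against 2.71 to 21.4 in the PFC). Not called were miR-338-5p (0.50, adjusted p = 0.0664), miR-219-2-3p (0.55, adjusted p = 0.155) and miR-219-1-3p (−0.49, adjusted p = 0.0748). With GC correction miR-338-3p had 1.24 and was still called. The vascular list summed to 5698 to 10388 CPM in the NAc, 4273 to 6013 in the PL and 1561 to 3326 in the IL. In M366 the NAc (5698) was below the PL (5731). Of 6 tested arms 2 were higher and 1 was lower, with a median log2FC of 0.10 against the PL and 0.86 against the IL. The endothelial arms miR-126a-3p (1.04, adjusted p = 0.0149) and miR-126a-5p (1.55) were higher. With GC correction these 2 arms had 0.84 and 0.73 and were still called. Of the smooth muscle and pericyte arms miR-145-5p was lower (−0.81, adjusted p = 0.00297), and miR-143-3p (0.36), miR-143-5p (−0.35) and miR-145-3p (0.61) were not called. With GC correction miR-145-5p had −0.47 and was not called. The list of immune cells and microglia had 1 higher and 3 lower of 6, and 0 higher and 1 lower of 4 with GC correction. As counted the higher arm was miR-142-5p (1.66, 1.07 to 3.61 CPM in the NAc and 0.11 to 1.32 in the PFC). The lower ones were miR-150-5p (−0.71), miR-150-3p (−1.13) and miR-146b-3p (−0.95). miR-146a-5p (0.27) and miR-146b-5p (−0.33) were not called. With GC correction miR-142-5p had 0.51 and was not called, and miR-146b-5p had −0.85 and was called. The untested miR-142-3p and miR-223-3p were at or below 0.45 CPM in every library. The erythrocyte miR-451-5p was 1.35 to 3.31 CPM in the NAc and 0 to 1.28 in the PFC, and miR-144-3p had no reads. The choroid plexus and ependymal list had 1 higher and 1 lower of 8, the muscle list 1 and 1 of 4, and the list of miR-200 with miR-183 relatives 0 of 8 in either direction. With GC correction these 3 lists had 0 higher and 1 lower of 8, 0 and 2 of 4, and 0 and 2 of 5. The part of vascular and glial cells in the results was not tested. No miRNA marker of the NAc as a region was fixed, so the labels were checked as brain tissue alone, and the neuronal miRNAs were at high levels in all 12 libraries.

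The PL and the IL did not stand at the same distance from the NAc. Against the PL alone 81 miRNAs were called higher and 76 lower (34.4% in all), and against the IL alone 259 (56.7%), 136 higher and 123 lower. The IL and PL differed from each other in 147 calls (32.2%), 68 higher and 79 lower in the IL. For miR-7a-5p the NAc was higher by 2.0 than the PL, and for miR-137-3p by 1.59 than the PL and 3.31 than the IL. miR-187-3p was higher by 4.34 than the PL and by 3.47 than the IL, and the IL exceeded the PL by 0.87 (adjusted p = 0.034). miR-214-3p (−2.95 and −3.02) and miR-205 (−2.53 and −2.36) were lower by nearly the same amount against each area, and IL and PL did not pass the test for either (adjusted p = 0.90 and 0.73). The counts for IL minus PL were not stable: without M153 they were 25 higher and 2 lower, without M366 29 and 21, without M154 27 and 14, and without M172 93 and 41. Against the PL the calls fell to 43 higher and 42 lower without M153, to 31 and 43 without M172 and to 46 and 45 without M154.

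The NAc minus PFC difference at withdrawal was set beside that of the naïve and the abstinence rats, to see whether the region difference itself depended on the drug state. Naïve rats had 301 calls, of which 158 were higher in the NAc, and abstinence rats had 276, of which 119 were lower. Of the 247 calls at withdrawal, 236 were also called in naïve rats and 231 in abstinence rats, all in the same direction. The mean differences correlated across miRNAs with r = 0.951 (rho = 0.941) between withdrawal and naïve rats and r = 0.930 (rho = 0.919) between withdrawal and abstinence rats, which have no samples in common. The GC gradient was also present in both (rho −0.59 and −0.54). The edgeR test of the difference itself called no miRNA against naïve rats (0 of 457, 0%, with 11 at an unadjusted p under 0.05 and a lowest adjusted p of 0.70) and none against abstinence rats (0 of 457, 0%, with 6 at an unadjusted p under 0.05). DESeq2 and limma-voom also called none, with 13 and 14 miRNAs against naïve rats and 5 each against abstinence rats at an unadjusted p under 0.05. The median SE of such a difference was 0.36 against naïve rats on the log2 scale. With 4 rats a group and 457 miRNAs tested, a difference had to be well above its SE to be called. The larger differences of single miRNAs given below were not called either. The absence of calls therefore does not exclude differences well above 0.36.

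A set of 6 miRNAs was called at withdrawal and in neither other group (miR-10b-5p, miR-505-3p, miR-295-3p, miR-128-3p, miR-582-3p and miR-421-3p), chosen after their values were seen. Their difference from naïve rats had adjusted p-values of 0.97 to 0.98, so they were not shown to be particular to withdrawal. miR-340-5p had the lowest p-value of the differences from naïve rats. Its NAc minus PFC values were 0.32, −0.36, 0.09 and −0.17 in the withdrawal rats, 0.68, 0.67, 0.66 and 1.08 in the naïve rats and 0.27, 0.29, 0.46 and 0.77 in the abstinence rats. The withdrawal and naïve values did not overlap, but the difference of −0.78 (SE 0.22, unadjusted p = 0.00182) had an adjusted p of 0.70. The withdrawal value itself was −0.03 in the edgeR fit and −1.73, called, with GC correction. miR-217-5p followed with −2.22 (SE 0.67, adjusted p = 0.70), and miR-741-3p had −2.87 (SE 1.11, unadjusted p = 0.0169). For miR-187-3p the difference within a rat was 3.48, 4.26, 4.34 and 3.97 at withdrawal, 3.43 to 4.44 in naïve rats and 4.38 to 5.16 in abstinence rats, whose values were all above those of the withdrawal rats (−0.77, SE 0.36, unadjusted p = 0.041, adjusted p = 0.99).

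**Figure D5:**
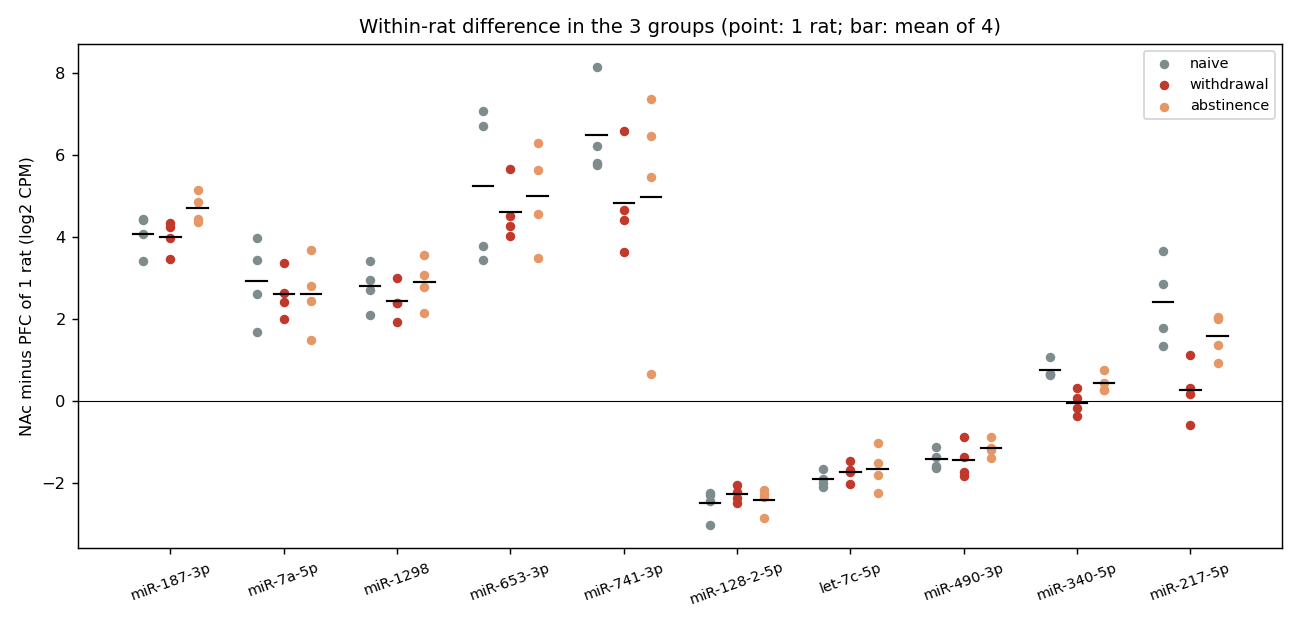
NAc minus PFC difference of single rats in log2 CPM (vertical axis) for 10 miRNAs in naïve, withdrawal and abstinence rats, 1 point a rat, with the mean of 4 rats as a black bar. The groups lie close together for most miRNAs, with miR-187-3p between 3.43 and 5.16 in all 12 rats, and miR-340-5p is the case where withdrawal (−0.36 to 0.32) and naïve rats (0.66 to 1.08) do not overlap.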

How the data were processed

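Small RNA was sequenced from dissected NAc, PL and IL of 12 rats. The authors ran the CAP-miRseq workflow and deposited its counts of reads for each mature miRNA, without normalization. The study's methods name the genome build rn6 and the submitters' processing notes name mRatBN7.2 (rn7), so no coordinates are given. Libraries were sequenced in pools whose membership is not given in the sources used here.

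The main fit used edgeR 4.0.16 in R 4.3.3 on all 36 libraries. The function filterByExpr, at a minimum count of 10 and a minimum total of 15, kept 457 of 723 miRNAs and 99.9981% of the counts, with 95 miRNAs without any count. Libraries were scaled by TMM, and the model held the region within each group, the rat as a fixed block and RIN. Libraries of 1 rat come from the same animal according to the study's RNA sample table, except that 1 naïve NAc library not in the part of the table used here was tied to rat M480, the only rat listed without one. Deviations from the group means correlated by 0.10 to 0.44 (PL and IL), 0.085 to 0.71 (PL and NAc) and 0.014 to 0.41 (IL and NAc), and the consensus correlation was 0.117. SE of edgeR changes are approximate. The scripts were tested on simulated data. Alternatives used limma 3.58.1 and DESeq2 1.42.0, and figures matplotlib 3.10.9 in Python 3.11.15.

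Sequences and host genes came from RefSeq (GRCr8), matched by name for 645 of 723 miRNAs (411 of 457 tested). Hairpins within 10000 bases were counted as neighbours. GC-corrected offsets used a natural spline with 3 degrees of freedom per library.

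The members, lists and naming rule were chosen with earlier results of these data known. Named were the 12 largest changes in each direction (mean log2 CPM of at least 5, same sign in 4 rats), the 5 most abundant calls and the 5 largest changes under that level in each direction, up to 4 members of a list, the 5 lowest p-values of each difference between groups and hairpins with arms called in opposite directions. Chosen after their values were seen were sister arms of named miRNAs (miR-187-5p, miR-490-5p, miR-483-3p, miR-128-1-5p), seed or cluster neighbours (let-7e-5p, miR-98-5p, miR-871-3p), the extremes of the Dlk1-Dio3 domain and single cell-type markers.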

Additional observations from a re-analysis of the deposited data

Results flagged for a closer look

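Over the 82 named miRNAs the within-rat difference (NAc minus PFC, log2 CPM) of 1 rat stood apart from the other 3 withdrawal rats for 5, by Dixon's test at the 95% level, which chance passes for about 1 in 20 miRNAs. miR-1188-3p was 2.37 in rat M172 and 0.06 to 0.24 in the others, and the PL library of M172 had no read of it. miR-205 was −1.28 in M153 and −3.04 to −2.80 in the others. miR-214-3p was −3.86 in M153 and −2.58 to −2.34 in the others. miR-409a-3p was −0.18 in M153 and −0.39 to −0.38 in the others. miR-542-5p was 0.71 in M366 and −1.57 to −1.18 in the others.

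The NAc minus PFC difference of miR-1188-3p was above 0 in every withdrawal rat and below 0 in every abstinence rat, with a difference of 1.16 between the groups. The edgeR test of that difference gave an adjusted p of 0.99.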

How the results depend on the processing

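Counts of calls for NAc minus PFC (132 higher, 115 lower) were within 1.5 times under most alternatives. They were 189 and 54 with library totals and no scaling, 68 and 67 of 214 miRNAs with a mean log2 CPM of at least 5, and 81 and 76 against the PL alone. In the main fit 90 of the higher and 50 of the lower calls were at least 2-fold. With GC-corrected offsets 63.5% of calls were higher, against 53.4%. Leaving out 1 rat gave 87 (without M172) to 122 higher and 105 to 118 lower. The fit without the rat block (no replicate block) gave 119 higher and 114 lower, and limma-voom with the rat as a random block 135 and 116.

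NAc minus PL calls (81 higher, 76 lower) were 151 and 22 with library totals, 41 and 34 at a mean log2 CPM of at least 5, 49 lower with GC correction, and 31 to 76 higher and 42 to 78 lower with 1 rat left out. NAc minus IL calls (136 and 123) were 74 lower with library totals, 75 and 77 at a mean log2 CPM of at least 5, and 75 lower with GC correction. IL minus PL calls (68 and 79) were 36 higher at a mean log2 CPM of at least 5, 22 and 42 with GC correction, and 25 to 93 higher and 2 to 41 lower with 1 rat left out. These 3 comparisons and the GC correction were added after the data had been seen. The cause of these moves was not tested, apart from the smaller number of miRNAs at the higher level filter.

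With GC correction the direction turned for let-7f-5p (−0.27), miR-140-3p (0.31), miR-26a-5p (−0.068), miR-29a-3p (−0.10), miR-29b-3p (−0.50), miR-99b-5p (0.19) and miR-9a-5p (−0.22). It also turned for miR-140-3p with library totals (0.10) and for miR-195-5p against the PL alone (−0.031). Of those that turned with GC correction, miR-29b-3p (0.57 as counted) and miR-140-3p (−0.29 as counted) were called in both fits, in opposite directions. The call of miR-29b-3p as counted was also lost without M172. Of 68 named and called miRNAs, 41 were called in the same direction under every alternative setting that tested NAc minus PFC and could be run on them. The settings that left out a naïve or an abstinence rat tested the differences between groups alone and are not among these. With a prior count of 2 the log2 difference was 2.03 for miR-653-5p, 2.44 for miR-743a-3p and 2.24 for miR-743b-5p. Both tests between groups called 0 miRNAs in every setting. Depth limits miRNAs with few reads in a region, above all those of miR-653, miR-743 and miR-214.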
